A study of Mus musculus with 16 samples.

Results

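Skeletal muscle taken as a whole tissue holds fat cells beside its fibres, and the RNA of a muscle sample therefore includes transcripts that adipocytes make. The genes described here are 10 adipocyte genes, namely Adipoq, Cfd, Lep, Retn, Fabp4, Cidea, Cidec, Car3, Adrb3 and Pck1. They were taken as every array probe, other than control spots, that carried one of these gene names. Probes were found for 9 of the 10 genes, 13 probes among 41174 on the array. No probe carried the name Pck1, the gene of the cytosolic phosphoenolpyruvate carboxykinase, which is not analysed here. A filter on weak spots, which asked for a mean signal of at least 2 times the background in both dye channels, left 12 probes of 8 genes among 19398 probes.

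Gene expression was measured in gastrocnemius, a muscle of the calf, of 16 male C57BL/6N mice, with 1 two-color array for each mouse. Starting at 3 months of age, all mice received for 8 weeks a corn oil-based high-fat diet (cHF, with 35% lipids by weight) that contained rosiglitazone at 10 mg per kg diet. In 8 mice this was the whole treatment (cHF+ROSI), while in the other 8 mice a concentrate of n-3 polyunsaturated fatty acids with long chains (n-3 LC-PUFA) replaced 15% of the dietary lipids (cHF+F+ROSI). All mice were fasted for 10 h of the light phase, were offered Chow diet again overnight and were killed in the morning, so that no group without rosiglitazone and no group without the high-fat diet enters the values below. The comparison asks what n-3 LC-PUFA added to rosiglitazone.

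The RNA of each mouse was labelled with Cy5 and hybridized against 1 common Cy3-labelled pool of muscle RNA. A level is therefore given as log2(Cy5/Cy3), in short the log2 ratio. In it 0 is an equal signal of both dyes after normalization, and 1 unit is a doubling of the ratio. The mice were always in Cy5 and the pool always in Cy3, so that 0 need not be the level of the pool. The authors state that the Cy3-labelled samples were pooled. They name mice on a higher dose of rosiglitazone for the pool of their first array study, while the arrays used here are from the second. Arrays lay on 4 slides, each with 2 mice of either group. On each slide, positions 1 and 3 held cHF+ROSI arrays, positions 2 and 4 held cHF+F+ROSI arrays, so that position and diet cannot be told apart. Spots had a median Cy5 signal, relative to background, of 2.33 to 3.64 per array, and a median Cy3 signal of 1.78 to 2.02. The labels name 8 mice in each group as separate replicates. Genes of muscle fibres were present as the label of the tissue asks: 10 of 10 fast fibre genes and 9 of 9 slow fibre genes passed the filter and lay well above background in Cy5 on 16 of 16 arrays.

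White adipocytes store triglycerides in 1 large droplet and release hormones. PPARγ, the nuclear receptor that rosiglitazone activates, is the main driver of the adipocyte programme, and many of its known target genes encode hormones, lipid-binding proteins and proteins of the droplet surface. n-3 LC-PUFA are known to act on adipose tissue as well. Of the genes described, Adipoq (adiponectin, a hormone that improves insulin sensitivity), Lep (leptin, a satiety hormone), Retn (resistin) and Cfd (complement factor D, or adipsin, a serine protease) encode secreted proteins. Fabp4 encodes a fatty acid carrier of the cytosol, Cidea and Cidec encode proteins of the lipid droplet, Car3 encodes carbonic anhydrase III, and Adrb3 encodes the β3-adrenergic receptor, which triggers lipolysis. Car3 is also made by muscle fibres, and Fabp4 also by capillary endothelium and macrophages.

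The promoters of genes that varied together are shown to let their sequences be compared. The RefSeq table used here (build GRCm38.p6) held promoters of Adipoq, Cfd, Lep, Retn, Cidec and Pck1, each of 300 bases around a transcription start. No promoter of Fabp4, Car3, Cidea or Adrb3 was examined here. On both strands, 9 motifs were searched: the direct repeat bound by PPAR with RXR (by its consensus with no mismatch), the C/EBP site as TTGCGCAA and in the looser forms TTNCGCAA and TTGCNNAA (each of which the full site also matches), TGACGTCA and TTACGTCA (cAMP response elements), the TATA box TATAAA, the CCAAT box and the E-box CACGTG. Capitals mark the matches on either strand below, each sequence written 5′ to 3′ on the strand of the gene. Adipoq lies on the plus strand at chr16:23146286-23146585, Lep on the plus strand at chr6:29059971-29060270, and Cidec on the minus strand with starts in chr6:113435711-113436010 and chr6:113434715-113435014.
Adipoq: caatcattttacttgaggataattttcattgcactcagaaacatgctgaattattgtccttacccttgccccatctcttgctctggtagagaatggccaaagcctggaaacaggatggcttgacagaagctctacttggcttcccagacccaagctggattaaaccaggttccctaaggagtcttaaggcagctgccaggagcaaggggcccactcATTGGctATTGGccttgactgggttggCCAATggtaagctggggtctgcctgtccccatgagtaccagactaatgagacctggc
Lep: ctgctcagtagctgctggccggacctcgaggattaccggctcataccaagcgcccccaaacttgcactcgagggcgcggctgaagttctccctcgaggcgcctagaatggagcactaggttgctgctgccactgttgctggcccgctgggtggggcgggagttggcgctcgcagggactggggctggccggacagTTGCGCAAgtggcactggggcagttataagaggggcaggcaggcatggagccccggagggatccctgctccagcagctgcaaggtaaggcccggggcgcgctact
Cidec, first start: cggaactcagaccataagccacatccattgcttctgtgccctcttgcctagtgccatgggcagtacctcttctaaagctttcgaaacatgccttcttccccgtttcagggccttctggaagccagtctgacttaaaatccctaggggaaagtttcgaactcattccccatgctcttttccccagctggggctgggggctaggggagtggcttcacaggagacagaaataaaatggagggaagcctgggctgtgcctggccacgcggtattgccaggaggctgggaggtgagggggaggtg
Cidec, second start: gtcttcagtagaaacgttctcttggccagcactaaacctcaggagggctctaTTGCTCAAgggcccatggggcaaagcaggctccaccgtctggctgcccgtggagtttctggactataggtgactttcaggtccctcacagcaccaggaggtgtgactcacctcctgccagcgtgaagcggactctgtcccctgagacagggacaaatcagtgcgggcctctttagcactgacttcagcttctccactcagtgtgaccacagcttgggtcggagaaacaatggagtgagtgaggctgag
The Adipoq window held 3 matches to CCAAT, a motif found in 37.4% of the 32851 promoters searched. The Lep window held the full palindrome TTGCGCAA at -55 from the start, which 0.183% of promoters hold. In the second window of Cidec the looser form TTGCNNAA was found, which 10.8% of promoters hold, and the first window held none of the motifs. The windows of Retn and Cfd held none either, and that of Pck1 held TTACGTCA, which 0.499% of promoters hold. The repeat of PPAR with RXR was in none of these windows and in 0.0396% of all promoters. The motifs without a further match among them are found in 0.798% (TTNCGCAA), 1.79% (TGACGTCA), 13.6% (TATAAA) and 7.15% (CACGTG) of promoters. Adipoq and Cidec, whose RNA varied most closely together (below), thus shared none of the searched motifs within these windows. A match or its absence is a description of these letters only.

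The adipocyte genes were spread widely between mice of the same diet. For Adipoq, read by a probe at chr16:23072837-23072896 of mm8, the log2 ratio in the cHF+F+ROSI mice was lowest at -1.68, had a median of 0.12 and was highest at 1.17. In the cHF+ROSI mice the lowest value was -1.20, the median -0.49 and the highest 0.53. The groups overlapped, and the lowest mouse and the highest mouse of all 16 were both in the cHF+F+ROSI group and differed 7.24-fold. In bulk RNA of muscle, fewer adipocytes in the sample and less RNA of the gene per adipocyte cannot be told apart.

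Cidec, a protein that lets lipid droplets fuse into a large one, had its extremes in the same mice as Adipoq. Its probe lies at chr6:113390476-113390535 of mm8. In cHF+F+ROSI it ranged from -2.07 over a median of 0.11 to 1.01, and in the cHF+ROSI mice from -1.66 over -0.72 to 0.51. The lowest mouse was again replicate 1 and the highest replicate 8 of the cHF+F+ROSI group, 8.47-fold apart. Cfd (chr10:79295686-79295745 of mm8) ranged from -1.01 over 0.48 to 1.94 in cHF+F+ROSI animals and from -0.87 over -0.09 to 0.59 in the cHF+ROSI mice. Its highest values were those of cHF+F+ROSI replicates 8 and 2, at 1.94 and 1.80, and no cHF+ROSI mouse reached either.

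Among the other hormones, Lep (chr6:29023244-29023303 of mm8) ranged from -1.74 over -0.32 to 0.23 in cHF+F+ROSI animals and from -0.97 over -0.29 to 0.35 in the cHF+ROSI mice. The probe of Lep was spotted 10 times on each array, and the SD of these spots within an array had a median of 0.08 and was at most 0.14, while the SD between mice of a group was 0.64. The brighter of the probes of Retn, which spans chr8:3656107-3656928 of mm8, ranged from -0.95 over -0.04 to 1.25 in cHF+F+ROSI animals and from -0.84 over -0.14 to 0.28 in the cHF+ROSI mice. Replicate 8 of the cHF+F+ROSI group stood highest for Retn, as it did for Adipoq, Cidec and Cfd. For Lep the highest mouse was replicate 8 of the cHF+ROSI group.

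Fabp4 and the brighter probe of Car3 varied over narrower ranges than the hormones, while a dimmer probe of Car3 (below) spanned 10.2-fold. Fabp4 was read by 3 probes, of which the brightest (chr3:10186983-10187043 of mm8) ranged from -1.0 over -0.53 to 0.10 in cHF+F+ROSI animals and from -0.80 over -0.48 to 0.37 in the cHF+ROSI mice. Cidea (chr18:67493066-67493125 of mm8) ranged from -0.80 over -0.09 to 0.96 in cHF+F+ROSI animals and from -1.16 over -0.35 to 0.07 in the cHF+ROSI mice. The brighter probe of Car3 (chr3:14848525-14848584 of mm8) ranged from -0.04 over 0.48 to 1.23 and from -0.11 over 0.46 to 0.78, in the same order of groups. Groups overlapped for each of these genes. For Cidea 7 of 8 cHF+F+ROSI mice lay above the mean of the cHF+ROSI mice, for Car3 5 of 8 and for Fabp4 3 of 8. Adrb3 (chr8:28692781-28693200 of mm8) was not well above background on any of the 16 arrays in either channel, so that no fold change is given for it.

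**Figure D1:**
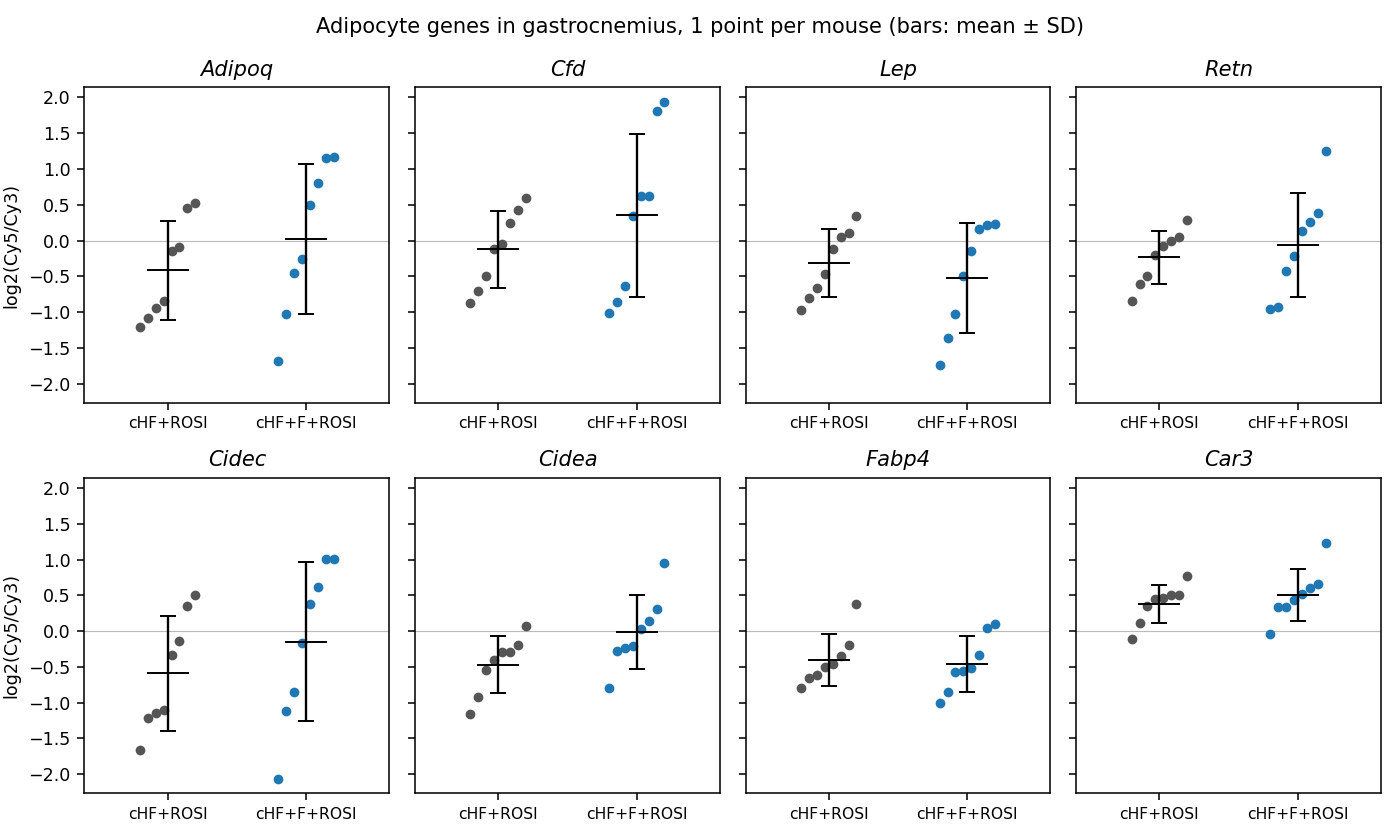
Log2(Cy5/Cy3) of the 8 adipocyte genes that passed the filter, with 1 point for each of 8 cHF+ROSI mice (grey) and 8 cHF+F+ROSI mice (blue), and bars for the mean ± SD; within a group points are ordered by value. The groups overlap in every panel, and Adipoq, Cfd and Cidec reach over the widest ranges.

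Compared with other probes, these genes were among those that varied most between mice. The SD of the log2 ratio within groups was 0.97 for Cidec, 0.89 for Adipoq and 0.89 for Cfd, against a median of 0.14 over all probes that passed the filter. For Cidec, Adipoq, Cfd and Lep more than 99% of all probes had a lower SD, namely 99.8%, 99.8%, 99.7% and 99.2%. For Retn it was 98.9%, for Cidea 97.8%, for Fabp4 95.8% and for the brighter probe of Car3 93.5%. Since Cy3 carried 1 pool throughout, its values give the spread of the arrays themselves. The spread from isolating and labelling the RNA of each mouse is not part of it. In Cy3 the SD over arrays was 0.12 for Adipoq, 0.09 for Cidec and 0.05 for Cfd, and the SD of the Cy5 channel was 7.63, 10.7 and 17.3 times as large. The probes of Car3 differed here: the Cy5 spread of the brighter one was 1.31 times that of Cy3, less than the 2.19 times of the median probe, while that of the dimmer one was 6.08 times, and 99.8% of probes had a lower SD of the log2 ratio than the dimmer one.

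None of the 8 genes passed the test of a difference between the diets after adjustment. In limma with Benjamini-Hochberg adjustment over 19398 probes, 0 of 8 genes were below an adjusted p of 0.05, as were only 3 of all probes (0.0155%). Before adjustment 1 of 8 genes, Cidea, had a p below 0.05 (7.46% of all probes were at or below it), and the methods' t-test called 0 before and after adjustment. With a fold change of at least 1.2 as a second condition, 1 of 8 genes was called, where 1.49% of all probes were, 0.474% as higher in cHF+F+ROSI. The groups overlapped for 8 of 8 genes, while they did not for 0.0777% of probes measured on all arrays. The log2 fold change (cHF+F+ROSI minus cHF+ROSI) was above 0 for 6 genes and below 0 for 2, with a median of 0.31. Over all probes the median was -0.0014, and 49.2% were above 0. Since 6 of the 8 genes, Lep and Fabp4 among them, varied together (below), these are not 8 separate observations.

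Cfd, Cidea, Adipoq and Cidec had the larger differences, with wide intervals. Cidea was 0.46 higher on the log2 scale in the cHF+F+ROSI mice (SE 0.21, 95% interval 0.02 to 0.90, limma adjusted p = 0.654, exact permutation p = 0.0639, n = 8 and 8). The means behind this were -0.01 ± 0.51 (SD) and -0.47 ± 0.40 (SD). Cfd differed by 0.48 (SE 0.40, interval -0.36 to 1.32, limma adjusted p = 0.834). Adipoq differed by 0.44 (SE 0.40, interval -0.40 to 1.28, limma adjusted p = 0.850), from means of 0.02 ± 1.05 (SD) and -0.42 ± 0.69 (SD). Cidec differed by 0.44 (SE 0.43, interval -0.47 to 1.36, limma adjusted p = 0.863). The intervals of Cfd, Adipoq and Cidec reach from a lower level in the cHF+F+ROSI mice to more than a doubling. Without the background filter, without the Cy3 reference and in the authors' own normalized table the sign of these 4 differences was the same, while weights for the arrays moved Cfd to 0.28. Single mice moved 3 of them by over 1.5 times: Adipoq was 0.68 without cHF+F+ROSI replicate 1, 0.28 without replicate 5 and 0.27 without replicate 8, Cidec was 0.72, 0.28 and 0.28 without the same mice and 0.29 without cHF+ROSI replicate 2, and Cfd was 0.27 without cHF+F+ROSI replicate 2 and 0.25 without replicate 8.

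The other genes differed by less. For Retn the log2 fold change was 0.18 (SE 0.26, interval -0.38 to 0.73, limma adjusted p = 0.924), for Lep it was -0.20 (SE 0.29, interval -0.81 to 0.40, limma adjusted p = 0.915), for Car3 it was 0.13 (SE 0.15, interval -0.18 to 0.43, limma adjusted p = 0.886) and for Fabp4 it was -0.06 (SE 0.17, interval -0.42 to 0.30, limma adjusted p = 0.964). The exact permutation p over all 12870 splits of the mice, two-sided, lay between 0.300 and 0.740 for the 7 genes other than Cidea. Without single arrays Lep ranged from -0.31 to -0.03 and Car3 from 0.02 to 0.21, with the values nearest 0 without cHF+F+ROSI replicate 1 for Lep and without cHF+F+ROSI replicate 2 for Car3. Second probes gave 0.26 for Retn, -0.04 and -0.02 for Fabp4 and 0.32 for Car3. In the Cy3 channel the arrays of the groups differed in Cidea by 0.06 (limma adjusted p = 0.920, unadjusted p = 0.0459).

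The differences varied from slide to slide. Adipoq was higher in the cHF+F+ROSI mice on 3 of 4 slides, with differences from -0.18 to 1.02. Cidea was higher on 3 of 4 slides, from -0.01 to 1.28, while Cfd went from -0.97 to 1.30. Lep was lower in the cHF+F+ROSI mice on 3 of 4 slides, from -0.56 to 0.33. With slide as a block Cidea had an unadjusted p of 0.0599 and an adjusted p of 0.710 in limma, and without slide its unadjusted p passed above 0.05 when any 1 of 8 arrays was left out, namely cHF+ROSI replicates 2, 4, 7 and 8 and cHF+F+ROSI replicates 1, 3, 5 and 8.

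**Figure D2:**
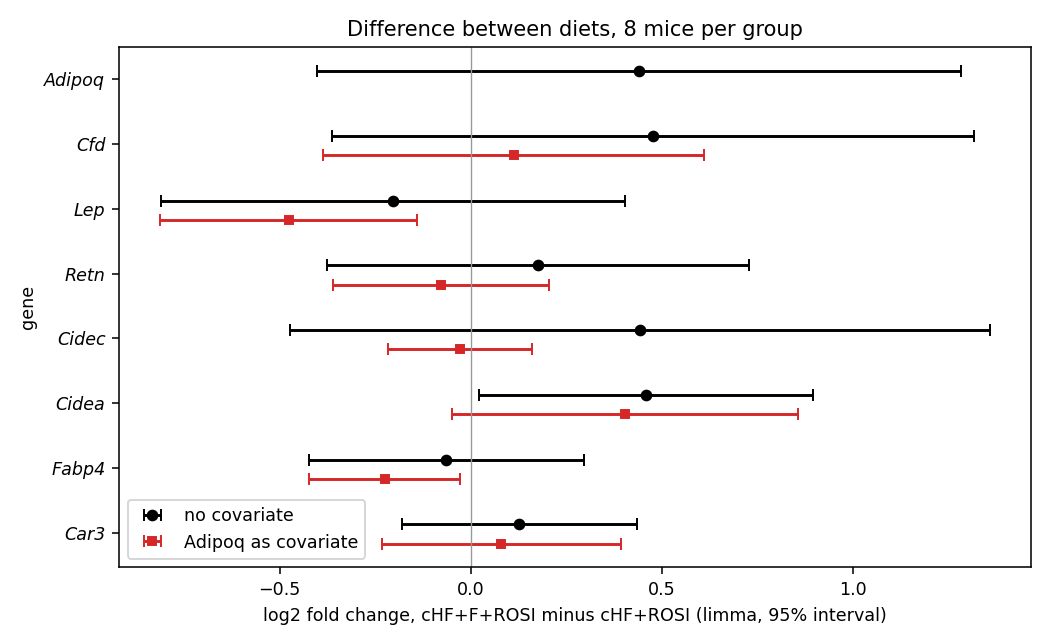
Log2 fold change (cHF+F+ROSI minus cHF+ROSI, 8 mice in each group) of each adipocyte gene with its 95% interval from limma, without a covariate (black circles) and with Adipoq of the same mouse as a covariate (red squares). Without the covariate only the interval of Cidea (0.02 to 0.90) lies above 0, and with it the intervals of Lep (-0.81 to -0.14) and Fabp4 (-0.42 to -0.03) lie below 0.

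Across the 16 mice, 6 of the 8 genes varied together. Against Adipoq, which was taken for the x axis because adiponectin is made by adipocytes, 7 relations were computed, each with a two-sided permutation test of 100000 resamples. Cidec followed Adipoq most closely, with a Pearson r of 0.98 and a Spearman rho of 0.96 (permutation p = 1e-05 for both, the smallest that the resamples can give). The slope of Cidec was 1.07 log2 units for each unit of Adipoq (limma adjusted p = 5.11e-09 over 19397 probes, with diet in the fit). Retn had r = 0.88 and rho = 0.93 (permutation p = 1e-05 for both), Cfd r = 0.84 (permutation p = 2e-05) and rho = 0.86 (permutation p = 5e-05), Fabp4 r = 0.82 (permutation p = 7e-05) and rho = 0.82 (permutation p = 0.00017), and Lep r = 0.78 (permutation p = 0.00049) and rho = 0.79 (permutation p = 0.00042). In the same fit the slopes of these genes had limma adjusted p of 0.00117 for Retn, 0.0065 for Cfd, 0.00284 for Fabp4 and 0.00296 for Lep. With a positive slope 50 of 19397 probes were called at an adjusted p of 0.05 (0.258%) and with a negative slope 0, and 5 of the 7 other adipocyte genes were.

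The 5 relations also held within each diet and without the most extreme mice. Among the 8 cHF+F+ROSI mice alone, r with Adipoq lay between 0.82 for Cfd and 0.98 for Cidec, and among the 8 cHF+ROSI mice alone between 0.83 for Retn and 0.99 for Cidec, with exact permutation p of at most 0.0160 in these 10 relations. After removal of slide and group means r was 0.99 for Cidec, 0.91 for Retn, 0.88 for Lep, 0.87 for Fabp4 and 0.82 for Cfd. Without the mice farthest from the Adipoq median, cHF+F+ROSI replicates 1 and 8, r was 0.98 for Cidec, 0.86 for Retn, 0.80 for Cfd, 0.73 for Fabp4 and 0.69 for Lep. The second probes followed as well, with r = 0.89 for Retn and 0.84 and 0.83 for Fabp4. In the main processing the slope differed from gene to gene: it was 0.83 for Cfd, 0.62 for Lep, 0.58 for Retn and 0.37 for Fabp4. Fabp4 thus moved by less than Adipoq from the lowest to the highest mouse, 2.60-fold in all against 7.24-fold. The offset of the background correction shrinks differences of weak probes. Those of Lep and Retn had Cy3 signals of only 4.22 and 4.72 times background. Their slopes may therefore depend on the processing, and slopes are given for the main processing only.

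**Figure D3:**
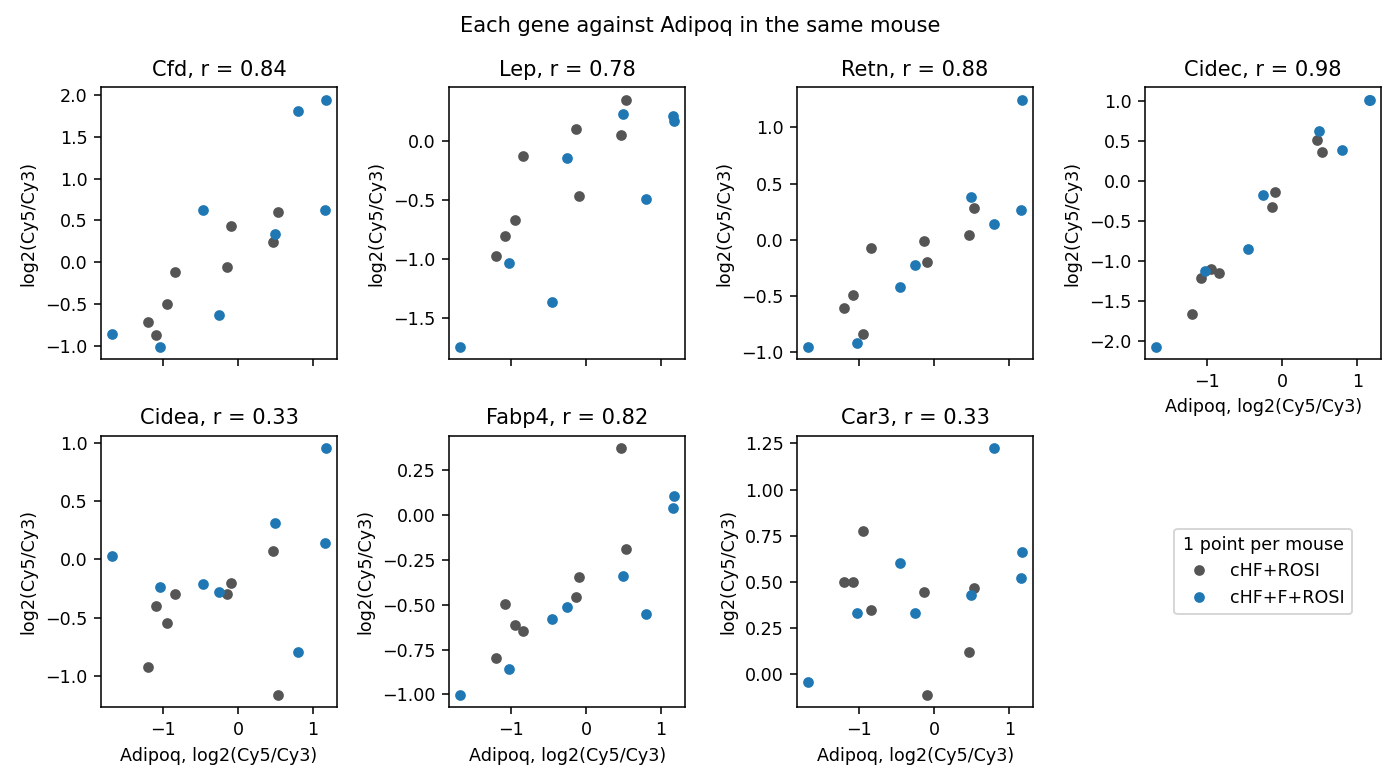
Log2(Cy5/Cy3) of 7 adipocyte genes (y axes, each with its own range) against that of Adipoq in the same mouse (x axes), with cHF+ROSI mice in grey and cHF+F+ROSI mice in blue. Cidec lies along a line (r = 0.98), while Cidea and Car3 scatter (r = 0.33 for both).

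Cidea and Car3 stood apart from the other 6 genes. For Cidea r with Adipoq was 0.33 (permutation p = 0.219) and rho 0.35 (permutation p = 0.188). For Car3 r was 0.33 (permutation p = 0.209) and rho 0.29 (permutation p = 0.268). Among Adipoq, Cfd, Lep, Retn, Fabp4 and Cidec the 15 pairs had r between 0.47, for Cfd with Lep, and 0.98, with a median of 0.82. The 13 pairs with Cidea or Car3 had r between -0.24 and 0.48, with a median of 0.28, and their lowest value was that of Cidea with Car3. Replicate 8 of the cHF+ROSI group was the lowest of 16 mice for Cidea and the highest for Lep. It is also the mouse that stood apart in Cidea minus Adipoq by a gap test (below). The r of Cidea over all mice was not recomputed without this mouse alone. Among the cHF+F+ROSI mice, which do not include it, r of Cidea with Adipoq was 0.31, and among the cHF+ROSI mice 0.12. Replicate 1 of the cHF+F+ROSI group was the lowest for Adipoq, Cidec, Lep, Retn and Fabp4, yet the fifth highest for Cidea.

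**Figure D4:**
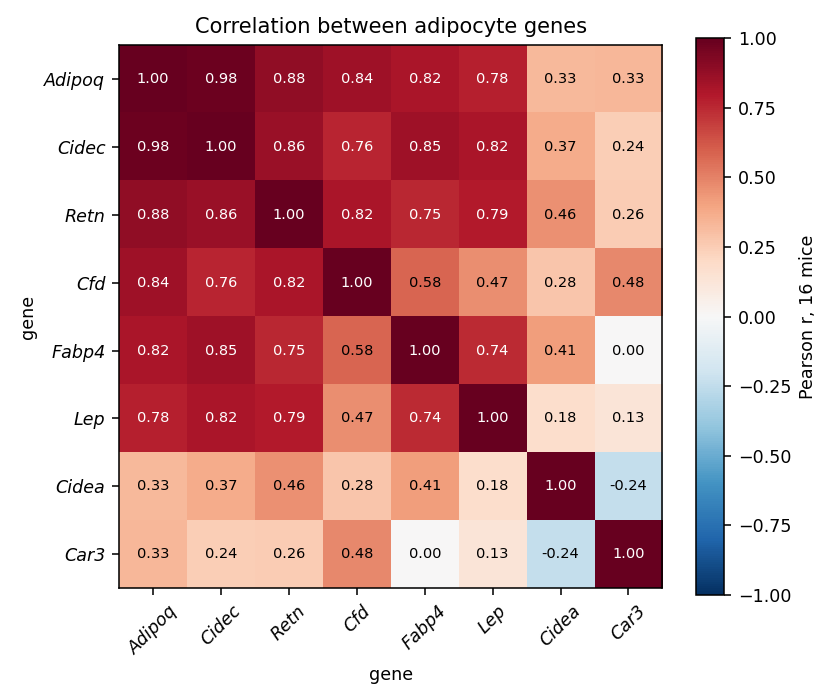
Pearson r over 16 mice between each pair of the 8 adipocyte genes (rows and columns, color scale from -1 to 1). Adipoq, Cidec, Retn, Cfd, Fabp4 and Lep form a block with r from 0.47 to 0.98, and Cidea and Car3 lie outside it.

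The probes of Car3 did not agree closely. The brighter one and a dimmer one start 7050 bases apart on chromosome 3 and had an r of 0.61 with each other, while the probes of Retn had 0.98 and those of Fabp4 at least 0.91. The dimmer probe (chr3:14841475-14841534 of mm8) had its lowest cHF+F+ROSI value at -1.45 and its highest at 1.90, and its lowest cHF+ROSI value at -1.11 and its highest at 1.59, with an SD within groups of 0.91 against 0.32 for the brighter probe. Its r with Adipoq was 0.16 (permutation p = 0.547) and its log2 fold change was 0.32 (interval -0.54 to 1.18, limma adjusted p = 0.903). Both probes of Car3 were thus without a detected relation to Adipoq over all mice. Within the diets the brighter probe had r = 0.69 among the cHF+F+ROSI mice and -0.50 among the cHF+ROSI mice (exact permutation p of the difference = 0.0157, the smallest of 7).

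Cidea and Car3 were also set against the mean of each of 11 gene lists, 22 relations in all. The 2 smallest values of p are given here. For Cidea the list was that of genes of fat and muscle fibres (Lpl, Cd36 and others), with r = 0.64 (permutation p = 0.00918, Benjamini-Hochberg adjusted 0.101) and rho = 0.62 (permutation p = 0.0117); without the 2 mice farthest from the Cidea median r was 0.66, and after removal of slide and group means 0.82. For Car3 the list was that of slow fibre genes, with r = -0.69 (permutation p = 0.00534, Benjamini-Hochberg adjusted 0.101) and rho = -0.67 (permutation p = 0.00588). Without the 2 mice farthest from the Car3 median r fell to -0.30, so that the size of r rests on those mice. The rho was not recomputed without them. Neither relation passed the adjustment.

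Since 6 genes shared most of their variation, the diets were also compared with Adipoq of the same mouse as a covariate, a fit chosen after the data were seen. In this fit 3 of 19397 probes had an adjusted p below 0.05 (0.0155%), and none of the 7 other adipocyte genes was among them, while 2, Lep and Fabp4, were at an unadjusted p under 0.05, beside 8.31% of all probes. Lep was lower by 0.48 on the log2 scale in the cHF+F+ROSI mice at a given Adipoq level (log2 fold change -0.48, SE 0.16, interval -0.81 to -0.14, limma unadjusted p = 0.00835, adjusted p = 0.490). As a plain difference, Lep minus Adipoq averaged -0.54 ± 0.55 (SD, n = 8) with n-3 LC-PUFA and 0.10 ± 0.39 (SD, n = 8) without (two-sided exact permutation p = 0.0196), and 7 of 8 cHF+F+ROSI mice lay below the cHF+ROSI mean. With scale normalization between arrays the covariate fit gave Lep -0.24 (limma unadjusted p = 0.189). Fabp4 had a log2 fold change of -0.23 (SE 0.09, interval -0.42 to -0.03, limma unadjusted p = 0.0275, adjusted p = 0.563). Fabp4 minus Adipoq was -0.49 ± 0.72 (SD, n = 8) and 0.02 ± 0.44 (SD, n = 8), in the same order (two-sided exact permutation p = 0.111). Both exact p-values are unadjusted. A plain difference takes the slope on Adipoq as 1, where the fitted slopes were 0.62 for Lep and 0.37 for Fabp4. It therefore also holds part of the diet difference of Adipoq itself, which was 0.44. Neither gene passed the adjustment. Cidec differed by -0.03 (SE 0.09, interval -0.22 to 0.16, limma adjusted p = 0.945), where the fit without the covariate gave an SE of 0.43. Cidea had a difference of 0.40 (SE 0.21, interval -0.05 to 0.86, limma adjusted p = 0.636).

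Other adipocyte genes, from a list of 19 with proteins of the droplet, enzymes of lipid metabolism, receptors and transcription factors, were compared between diets and set against Adipoq as well. Of these, 18 had a probe and 14 passed the filter. In the comparison of diets 0 of 14 were called by limma after adjustment, and 3 were higher and 0 lower before adjustment (p up to 0.05), beside 7.46% of all probes in either direction. Plin4, a perilipin of the droplet surface, had the largest log2 fold change of 0.46 (limma unadjusted p = 0.00614, adjusted p = 0.459), and Plin1 had 0.32 (limma adjusted p = 0.884). The median log2 fold change of the list was 0.02, against 0.31 for the 8 genes above. Its genes had a median r of 0.61 with Adipoq, and 9 of 14 had an r above 0.5, as had 2.74% of all probes measured on all arrays. The lowest r were 0.10 for Rbp4, 0.14 for Gpd1 and 0.22 for Dgat2. Plin1, the perilipin that guards the droplet against lipases, had r = 0.97, Nnat (neuronatin) 0.87, Sncg (γ-synuclein) 0.83 and Cebpa, a transcription factor of adipocyte differentiation, 0.76. Pparg, the target of rosiglitazone, had r = 0.72 and a log2 fold change of 0.02 (limma adjusted p = 0.985).

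The means of lists for other cell types had no detected relation to Adipoq. Of 11 list means, that of the other adipocyte genes had r = 0.90 and rho = 0.93 with Adipoq (permutation p = 1e-05 for both, Benjamini-Hochberg adjusted 0.00011 for r). The mean of the fatty acid synthesis genes had r = 0.53 (permutation p = 0.0307, adjusted 0.169), which was 0.27 without the 2 mice farthest from the Adipoq median. The other 9 lists had r between -0.26, for slow fibre genes, and 0.13, for fast fibre genes, each with an adjusted p of 0.961. Their median r was -0.15 for 9 macrophage genes, -0.15 for 8 endothelial genes, -0.02 for 9 connective tissue genes, 0.01 for 6 nerve sheath genes, -0.01 for 4 red blood cell genes and 0.11 for 8 genes shared by fat and muscle fibres. Of 8 brown adipocyte genes 4 passed the filter, with a median r of 0.01. In Cy5, Ucp1, the uncoupling protein that defines the brown adipocyte, was well above background on 2 of 16 arrays, Otop1 on 1, Elovl3 on 9 and Slc27a2 on 13, and Dio2, Prdm16, Zic1 and Kcnk3 were on 16. The role of any of these cells in the values above was not tested.

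Between diets these lists held no gene called after adjustment by limma. Before adjustment (p up to 0.05, which 7.46% of all probes reached in either direction), 4 of 8 endothelial genes were lower in cHF+F+ROSI and 0 were higher, among them Cldn5 (claudin-5, -0.45, limma adjusted p = 0.406) and Kdr (-0.27, limma adjusted p = 0.630). Of the genes shared by fat and muscle fibres 2 were higher and 1 was lower, 1 brown adipocyte gene and 1 connective tissue gene were lower, and the macrophage, red blood cell, nerve sheath, slow fibre and fast fibre lists held 0. Among 8 fatty acid synthesis genes 1 was higher and 2 were lower, and Scd1, the stearoyl-CoA desaturase, had the largest log2 fold change of -0.81 (limma adjusted p = 0.591). Scd1 had r = 0.51 with Adipoq, and with Adipoq as a covariate its log2 fold change was -1.08 (limma unadjusted p = 0.000106, adjusted p = 0.158). Srebf1, which drives these genes, had -0.43 without the covariate and -0.43 with it (limma adjusted p = 0.372 and 0.406).

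**Figure D5:**
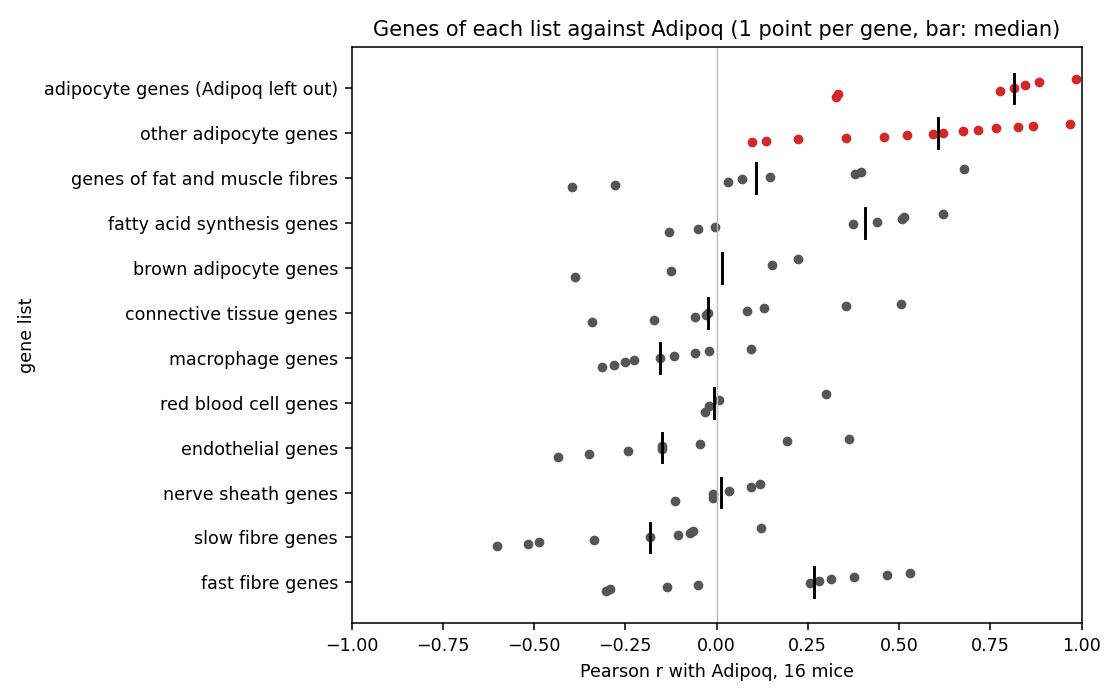
Pearson r with Adipoq over 16 mice (x axis) for each gene of 12 lists (rows, 1 point per gene that passed the filter, bars for the median), with adipocyte lists in red and others in grey. The medians are 0.82 and 0.61 for the adipocyte lists and lie between -0.18 and 0.41 for the others.

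The genes most like the measured adipocyte genes were found by their r, after removal of group means, with the mean of the 8 genes, each scaled to an SD of 1. Among 13516 other genes, each read by its brightest probe, the first 10 were Plin1 (on the array as Plin), Prkar2b, Slc7a10, Ntrk2, Phgdh, Acp5, Trarg1 (as Tusc5), Fads3, Glb1l2 (as BC038479) and Slc1a5, with r from 0.96 down to 0.91. Prkar2b encodes a regulatory subunit of protein kinase A, Slc7a10 and Slc1a5 encode amino acid transporters, Phgdh the first enzyme of serine synthesis, Ntrk2 a neurotrophin receptor and Trarg1 a protein of GLUT4 vesicles. On the same measure Adipoq, Cidec and Retn had 0.96, 0.95 and 0.95, while Cidea and Car3 had 0.42 and 0.32, although each of the 8 is itself part of that mean. Between diets the 10 had log2 fold changes from -0.08 to 0.32 and limma adjusted p from 0.726 to 0.992, with no unadjusted p under 0.103.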

How the data were processed

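RNA of gastrocnemius was measured in 16 mice, 8 per diet. The authors deposited, for each array, spot intensities from Feature Extraction (10.5.1.1 per the file headers, 10.5.5.1 in the submitters' processing notes) with probe positions on mm8. They also deposited log2 values normalized in GeneMaths XT, whose cHF+F+ROSI columns could be matched to the group but not to single mice. Background was corrected by normexp (offset 50). Control spots and probes with a mean signal over background under 2 in either channel were left out, outlier-flagged spots were set missing, and log2(Cy5/Cy3) then went through loess array by array. Groups were compared by limma 3.58.1 (R 4.3.3), and p-values of 19398 probes were adjusted after Benjamini-Hochberg; the offset and loess shrink fold changes of weak probes. Single genes were also tested by exact permutation over 12870 splits (smallest two-sided p 0.0001554). Each gene was read by its brightest probe. Alternatives were no background correction, processed signals, median centring, scale normalization, Cy5 alone, the authors' table, no filter or a filter at 3, slide or replicate blocks, array weights, the methods' t-test and each array left out; fits with Adipoq as covariate were added after the data were seen. The chain was tested on simulated data. The number of arrays limits precision. Named genes were the 10 adipocyte genes, examples from the lists with the largest log2 fold change or highest r with Adipoq, and the 10 genes most like them. Members and lists were chosen with earlier results of these data known. No 2 arrays held identical values.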

Additional observations from a re-analysis of the deposited data

Results flagged for a closer look

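Chance alone gives about 1 in 20 groups a mouse that stands apart by the gap test used (Dixon's gap to the nearest mouse over the range). Of 38 groups tested, 1 had such a mouse: Cidea minus Adipoq in cHF+ROSI replicate 8 was -1.69, while the other 7 mice lay between -0.39 and 0.68, a gap of 0.548 of the range.

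The relation of Car3 to Adipoq went in opposite directions in the groups, with r = 0.69 among the 8 cHF+F+ROSI mice and r = -0.50 among the 8 cHF+ROSI mice (exact permutation p of the difference = 0.0157, the smallest of 7 such relations and not adjusted). For the other 6 genes that p lay between 0.393 and 0.896.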

How the results depend on the processing

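Over 12 processing alternatives and 16 fits that each left out 1 array, 0 of the 8 genes were called at an adjusted p of 0.05 in any of them. The count of genes with an unadjusted p no higher than 0.05 together with a fold change of at least 1.2 was 1 and became 0 with scale normalization between arrays, with slide as a block and with the methods' t-test, and it ranged from 0 to 1 over the arrays left out. With replicate numbers as a block (replicate block) that count was 1, the log2 fold change of Cidea was 0.46 (unadjusted p = 0.0483) and no call changed; same-numbered mice correlated between -0.34 and 0.73 (4 of 8 above 0.1), and their numbers were not taken as pairs. The median log2 fold change of the 8 genes lay between 0.21 and 0.42 over the processing alternatives and between 0.18 and 0.39 without single arrays. Over the processing alternatives Lep lay between -0.38 and -0.10 and Car3 between 0.02 (scale normalization) and 0.21. Fabp4 reversed to 0.012 in the authors' table and ranged from -0.14 to 0.046 without single arrays, being above 0 without cHF+ROSI replicate 1 or cHF+F+ROSI replicate 1. Retn ranged from -0.011 to 0.30 without single arrays, being below 0 without cHF+F+ROSI replicate 8. With Adipoq as covariate, a fit chosen after the data were seen and not repeated with the blocks, the t-test or weights, Lep stayed below 0, from -0.94 to -0.24 over processing and from -0.56 to -0.38 without single arrays, with adjusted p from 0.303 to 0.966, and Fabp4 stayed below 0, from -0.37 to -0.17 and from -0.25 to -0.14. With scale normalization the covariate fit reversed Retn to 0.058 and Car3 to -0.023. Without single arrays it gave Cidec from -0.071 to 0.0063, Car3 from -0.0041 to 0.20 and Cfd from -0.0011 to 0.23. The relation of Car3 to Adipoq was 0.69 within the cHF+F+ROSI mice (exact permutation p = 0.0486) and -0.50 within the cHF+ROSI mice. The other relations with Adipoq kept their direction and their side of 0.05 in each alternative run. The causes were not tested.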
